A study of Mus musculus with 6 samples.

Results

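The genes described here are 9 that mark homeostatic microglia, the resident macrophages of the brain: *Cx3cr1*, *P2ry12*, *Tmem119*, *Csf1r*, *Siglech*, *Trem2*, *Tyrobp*, *Aif1* and *Itgam*. They were taken by symbol, through their Ensembl identifiers, from a table of 55471 genes counted in mouse hippocampus, and all 9 were measured in every library. The hippocampus of p300-ifKO mice was compared with that of control littermates by RNA-seq, with 3 mice per group and 1 library per mouse. An ifKO is an inducible forebrain knock-out: the Camk2a promoter drives creERT2, a tamoxifen-dependent Cre, in excitatory neurons of the forebrain, where it removes floxed *Ep300*, the gene for the lysine acetyltransferase p300. All mice were C57BL/6 (C57BL/6J in the methods of the study), 3 to 6 months old, and received tamoxifen in corn oil (5 administrations, 20 mg/ml). For this comparison the methods name male mice. Controls are described in the labels as littermates that lack creERT2, yet their sample descriptions name Camk2a_creERT2 too.

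Microglia survive on signals through the CSF1 receptor, sense neurons through the fractalkine receptor and purine receptors, and take up lipids and debris through TREM2, which signals through its adaptor DAP12, the product of *Tyrobp*. Transcripts such as *P2ry12* and *Tmem119* are characteristic of resting microglia, whereas *Aif1* (which encodes IBA1) and *Itgam* (CD11b) are shared with other macrophages. The Camk2a promoter is active in excitatory neurons, so microglia are not the cells targeted in this line. In RNA from whole tissue, fewer cells of a type and less RNA per cell cannot be told apart.

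Libraries held between 23151568 and 28433823 counts. Normalized counts, that is counts divided by the size factor of the library, are given throughout. *Ep300* had 1545, 1474 and 2334 normalized counts in control replicates 1 to 3 and 478, 1350 and 912 in p300-ifKO replicates 1 to 3, so that p300-ifKO replicate 2 lay close to the controls. *Esr1*, which encodes the estrogen receptor (creERT2 carries an estrogen receptor domain), had between 87.2 and 109 normalized counts in controls and between 2416 and 4217 in p300-ifKO mice. Libraries also differed in how transcripts of different length were represented: over 12253 genes, Spearman's rho between exonic length and the deviation of a gene from its mean over the 6 libraries was 0.290, 0.243 and 0.629 for control replicates 1 to 3, against -0.649, 0.611 and -0.413 for p300-ifKO replicates 1 to 3. p300-ifKO replicate 1 was thus richest in short transcripts, and log2 fold changes of the 9 genes without it or without replicate 2 are given where they moved by over 1.5 times. *Ep300* has 14273 exonic bases, so its counts are subject to the same length difference. The part of that difference in the *Ep300* values was not tested.

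In DESeq2, 0 of the 9 microglia genes had an adjusted p under 0.05, beside 2 of 32773 genes tested (0.00610%), *Esr1* and *Arsi*. The study describes the rise of both as a trait of mice that carry this creERT2 driver. Of the 9 log2 fold changes (p300-ifKO over control), 7 were above 0 and 2 below, from -0.09 for *Cx3cr1* to 0.56 for *Aif1*, with a median of 0.26. The median over all genes tested was -0.05, and over the 12252 genes with a mean of 100 or more normalized counts it was -0.004, with 49.3% of those genes above 0. At an unadjusted p under 0.05 there were 2 of the 9, *Trem2* and *Tyrobp*, both with higher means in p300-ifKO mice. The share of all genes passing in that direction was 0.772% (253 genes), over a base that includes many genes with few counts. In DESeq2 on 17302 genes with at least 10 counts in 3 libraries, 387 passed in either direction, with the same 2 of the 9. The edgeR quasi-likelihood test likewise called 0 of 9, with *Tyrobp* and *Itgam* at an unadjusted p under 0.05. In that test 2 of 17131 genes (0.0117%) passed, and 394 (2.30%) had an unadjusted p under 0.05 in either direction. All p300-ifKO libraries lay above all control libraries for 3 of the 9, *Csf1r*, *Siglech* and *Itgam*, and for 3.57% of genes with a mean of 100 or more normalized counts (437 genes).

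**Figure D1:**
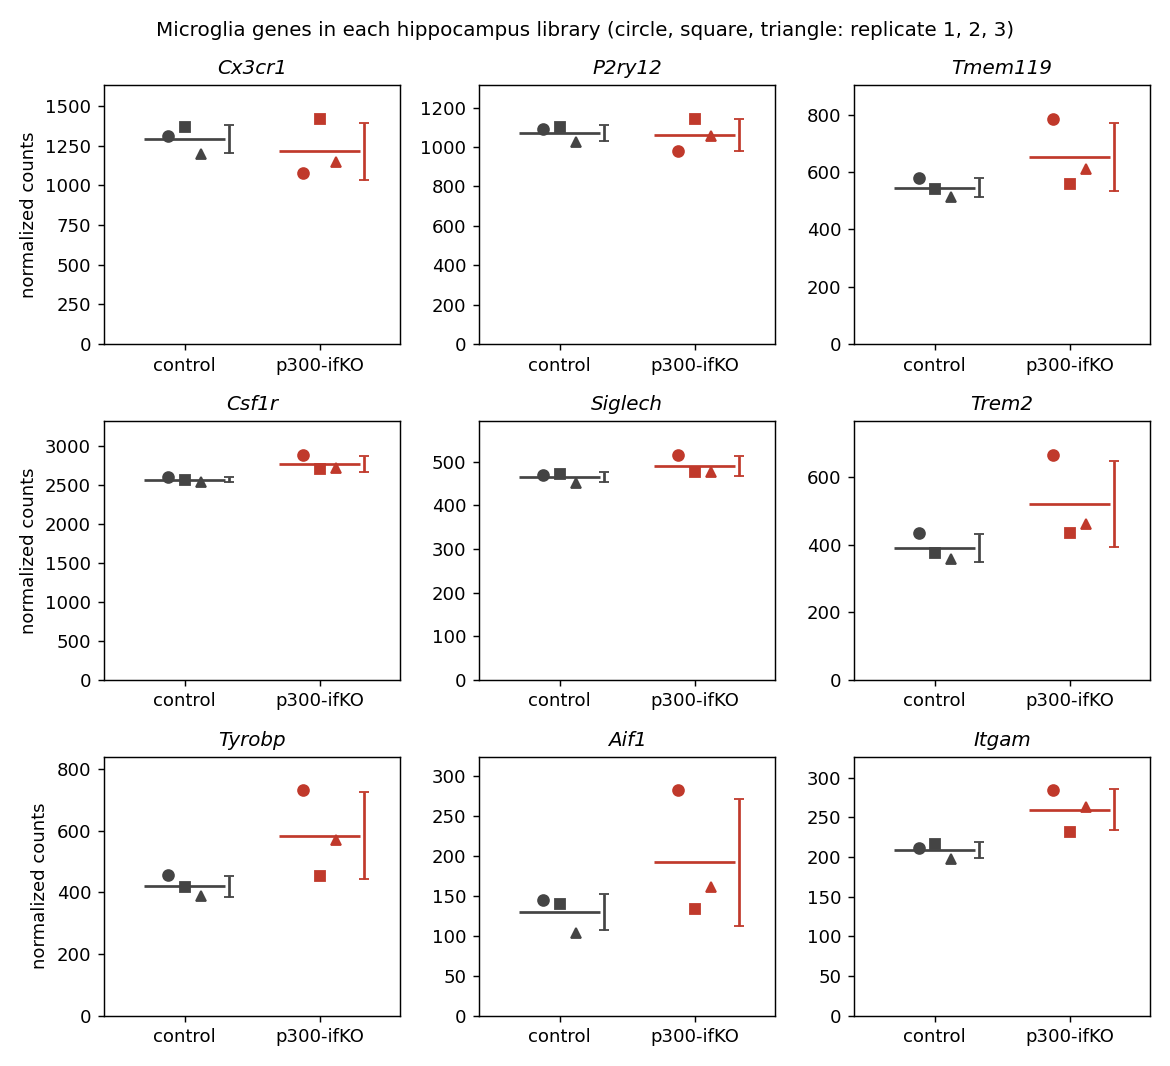
Normalized counts (vertical axes, from 0) of the 9 homeostatic microglia genes in 3 control and 3 p300-ifKO libraries. Symbols mark the replicate, horizontal lines the mean and error bars the SD. p300-ifKO replicate 1 (red circle) is the highest library for *Tmem119*, *Csf1r*, *Siglech*, *Trem2*, *Tyrobp*, *Aif1* and *Itgam*, and the lowest for *Cx3cr1* and *P2ry12*.

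The sequences just upstream of the transcription start are shown for *Trem2*, *Aif1*, *Itgam* and *P2ry12*, so that they can be read side by side. Of the 6 genes in the promoter table, *Trem2*, *Aif1* and *Itgam* had the largest log2 fold changes in absolute size and *P2ry12* the smallest. They were chosen after their values were seen. PU.1, the factor encoded by *Spi1*, binds a purine-rich core found at many macrophage promoters. Each stretch covers 250 bases upstream of the start in RefSeq (GRCm38.p6), written 5′ to 3′ along the strand of the gene, and capitals mark the PU.1 core GAGGAA or its complement TTCCTC. The regions are chr17:48346151-48346400 on the plus strand for *Trem2*, chr17:35176053-35176302 on the minus strand for *Aif1*, chr7:128062390-128062639 on the plus strand for *Itgam* and chr3:59262986-59263235 on the minus strand for *P2ry12*.
Trem2: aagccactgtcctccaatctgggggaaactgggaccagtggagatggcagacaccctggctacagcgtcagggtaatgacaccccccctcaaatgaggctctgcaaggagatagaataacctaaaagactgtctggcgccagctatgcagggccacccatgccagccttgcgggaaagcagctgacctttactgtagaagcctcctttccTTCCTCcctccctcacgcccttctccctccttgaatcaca
Aif1: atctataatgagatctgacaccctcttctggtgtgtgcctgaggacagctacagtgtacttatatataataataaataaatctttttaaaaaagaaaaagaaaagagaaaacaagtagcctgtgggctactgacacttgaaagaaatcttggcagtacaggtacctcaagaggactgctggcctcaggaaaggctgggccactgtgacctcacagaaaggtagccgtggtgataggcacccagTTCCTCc
Itgam: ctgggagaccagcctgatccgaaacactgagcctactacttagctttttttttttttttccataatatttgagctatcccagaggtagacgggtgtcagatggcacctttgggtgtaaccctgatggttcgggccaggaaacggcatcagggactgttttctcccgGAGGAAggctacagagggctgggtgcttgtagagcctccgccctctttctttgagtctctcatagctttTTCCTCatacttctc
P2ry12: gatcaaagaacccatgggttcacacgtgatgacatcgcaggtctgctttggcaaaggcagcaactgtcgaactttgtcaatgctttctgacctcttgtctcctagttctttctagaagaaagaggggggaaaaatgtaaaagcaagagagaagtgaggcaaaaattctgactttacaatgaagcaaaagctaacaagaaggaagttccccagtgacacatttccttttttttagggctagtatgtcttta

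The core was found once for *Trem2*, at position -40 from the start, once for *Aif1*, at -7, and at 2 places for *Itgam*, at -84 and -15. It was not found for *P2ry12*, *Cx3cr1* or *Siglech*. The promoter table held 6 of the 9 genes. *Tmem119*, *Csf1r* and *Tyrobp* were not matched. Of 32851 such windows over all genes 23.3% held the core on either strand. An ETS-IRF composite site, GAANNGAAA, was in 0 of the 6 windows and in 6.31% of all windows, and a MAF site core, TGCTGA, in 0 of the 6 and in 16.1% of all. A match is a description of the letters.

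The receptors through which microglia sense neurons and nucleotides came first. *Cx3cr1* (chromosome 9, 119901616 to 120069879 on GRCm38, minus strand) encodes the receptor for fractalkine, a ligand presented by neurons. Control mice had 1311, 1369 and 1199 normalized counts, against 1077, 1420 and 1145 in p300-ifKO mice, with means of 1293 ± 86.4 (SD, n = 3) and 1214 ± 182 (SD, n = 3). The highest and the lowest of the 6 values were both from p300-ifKO mice, and the groups overlapped. The log2 fold change was -0.09 (SE 0.15, 95% interval -0.39 to 0.21, adjusted p = 0.991 in DESeq2), and it was -0.01 without p300-ifKO replicate 1 and -0.22 without replicate 2. *P2ry12* (chromosome 3, 59216272 to 59262871, minus strand) encodes the ADP receptor that directs microglial processes to sites of injury. It had 1090, 1100 and 1027 normalized counts in control mice, and p300-ifKO mice had 981, 1144 and 1056, which again spanned the control range. Its log2 fold change was -0.02 (SE 0.12, 95% interval -0.26 to 0.23, adjusted p = 0.997 in DESeq2), with 0.04 and -0.07 in the same 2 fits. *P2ry12* shares exonic positions with *Med12l* on the opposite strand, which had between 485 and 896 normalized counts in controls and 142, 687 and 380 in p300-ifKO mice, and since a strand setting is not stated the 2 genes could not be fully separated.

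*Csf1r* (chromosome 18, 61100598 to 61132149, plus strand) encodes the receptor for CSF1 and IL-34 on which microglia depend for survival. It had 2600, 2563 and 2531 normalized counts in control mice and 2885, 2702 and 2712 in p300-ifKO mice, the highest counts of the 9 genes. The groups did not overlap, and the distance between them was small. The log2 fold change was 0.11 (SE 0.10, 95% interval -0.09 to 0.31, adjusted p = 0.991 in DESeq2). *Csf1r* overlaps *Hmgxb3* on the opposite strand in 14.27% of its exonic stretches of 50 bases (the read length), and *Hmgxb3* had 1053, 1096 and 1242 normalized counts in the controls, against 806, 1295 and 1070. The gene begins 112.4 kb past the end of *Camk2a*, whose promoter drives the transgene, and 15.5 kb past the end of *Pdgfrb*. Over that stretch *Slc6a7*, which encodes a proline transporter, stood at 0.30 on the log2 scale (SE 0.12, adjusted p = 0.991 in DESeq2) and *Pdgfrb* at -0.05. On the other side of *Camk2a* lies *Arsi*, an arylsulfatase gene called higher, with 2.56 (adjusted p = 2.98e-17 in DESeq2). *Camk2a* itself had -0.01. Whether a change in this region bears on *Csf1r* was not tested.

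*Trem2* (chromosome 17, 48346401 to 48354147, plus strand) encodes the lipid-sensing receptor of microglia. It had 436, 375 and 359 normalized counts in control mice and 667, 434 and 461 in p300-ifKO mice. p300-ifKO replicate 1 stood well above the other 5 libraries, while replicate 2 lay just below the highest control. Control mice averaged 390 ± 40.3 (SD, n = 3) and p300-ifKO mice 521 ± 127 (SD, n = 3), and the log2 fold change was 0.42 (SE 0.21, 95% interval 0.01 to 0.82, unadjusted p = 0.0463, adjusted p = 0.991 in DESeq2). Without p300-ifKO replicate 1 it was 0.20 and without replicate 2 it was 0.53 (adjusted p = 0.0706 in DESeq2).

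*Tyrobp* (chromosome 7, 30413760 to 30417585, plus strand) encodes DAP12, the adaptor that carries the signal of TREM2 and of Siglec-H. It had 456, 416 and 388 normalized counts in control mice and 730, 451 and 569 in p300-ifKO mice. The order of the libraries was close to that of *Trem2*, with p300-ifKO replicate 1 highest and replicate 2 within the control range. The log2 fold change was 0.47 (SE 0.21, 95% interval 0.07 to 0.88, unadjusted p = 0.0218, adjusted p = 0.991 in DESeq2). Without p300-ifKO replicate 2, *Tyrobp* was the one gene of the 9 to pass, at 0.63 (adjusted p = 0.0255 in DESeq2), in a fit that called 482 genes higher (4.11% of 11726 tested). Without p300-ifKO replicate 1 its log2 fold change was 0.28 (adjusted p = 1 in DESeq2).

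*Siglech* (chromosome 7, 55768178 to 55778925, plus strand), a sialic acid-binding lectin that pairs with DAP12, had 470, 472 and 451 normalized counts in control mice and 516, 475 and 477 in p300-ifKO mice. There was no overlap between groups, but p300-ifKO replicates 2 and 3 exceeded the highest control by only a few counts. The log2 fold change was 0.08 (SE 0.13, 95% interval -0.18 to 0.33), and 0.04 without p300-ifKO replicate 1. Beside it, the log2 fold change of its adaptor gene *Tyrobp* was 0.47, and the contrast between the 2 genes was not tested.

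*Itgam* (chromosome 7, 128062640 to 128118491, plus strand) encodes CD11b, the alpha chain of complement receptor CR3. It had 212, 217 and 197 normalized counts in control mice and 284, 232 and 263 in p300-ifKO mice, and every value from p300-ifKO mice exceeded every control value. Control mice averaged 209 ± 10.6 (SD, n = 3) and p300-ifKO mice 260 ± 25.7 (SD, n = 3), and the log2 fold change was 0.31 (SE 0.17, 95% interval -0.02 to 0.65, unadjusted p = 0.065, adjusted p = 0.991 in DESeq2). Of its exonic stretches of 50 bases, 66.34% are also annotated to *Gm49368* on the same strand, which held 0 counts in 5 of the 6 libraries, and reads on the shared part cannot be assigned to 1 gene by position alone. *Itgb2*, which encodes the beta chain of the same receptor, had a log2 fold change of 0.21 (SE 0.20).

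*Tmem119* (chromosome 5, 113793729 to 113800516, minus strand) encodes a transmembrane protein used to tell microglia from other macrophages. It had 580, 540 and 514 normalized counts in control mice and 786, 559 and 612 in p300-ifKO mice, which gave a log2 fold change of 0.26 (SE 0.17, 95% interval -0.08 to 0.60, adjusted p = 0.991 in DESeq2). *Aif1* (chromosome 17, 35170991 to 35176068, minus strand) encodes IBA1, the actin-binding protein commonly stained to count microglia. It had 145, 140 and 104 normalized counts in control mice and 282, 133 and 161 in p300-ifKO mice. The corresponding log2 fold change was 0.56 (SE 0.31, 95% interval -0.05 to 1.17, adjusted p = 0.991 in DESeq2). For both genes p300-ifKO replicate 1 was the highest library and replicate 2 lay within the control range. *Aif1* had the lowest count of the 9, with 102 reads in control replicate 3. Counting error alone gives a CV of 9.9% at that depth, whereas the CV over mice was 17.2% in control and 41.5% in p300-ifKO mice. Without p300-ifKO replicate 1, the log2 fold change of *Aif1* was 0.18 and that of *Tmem119* 0.10.

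**Figure D2:**
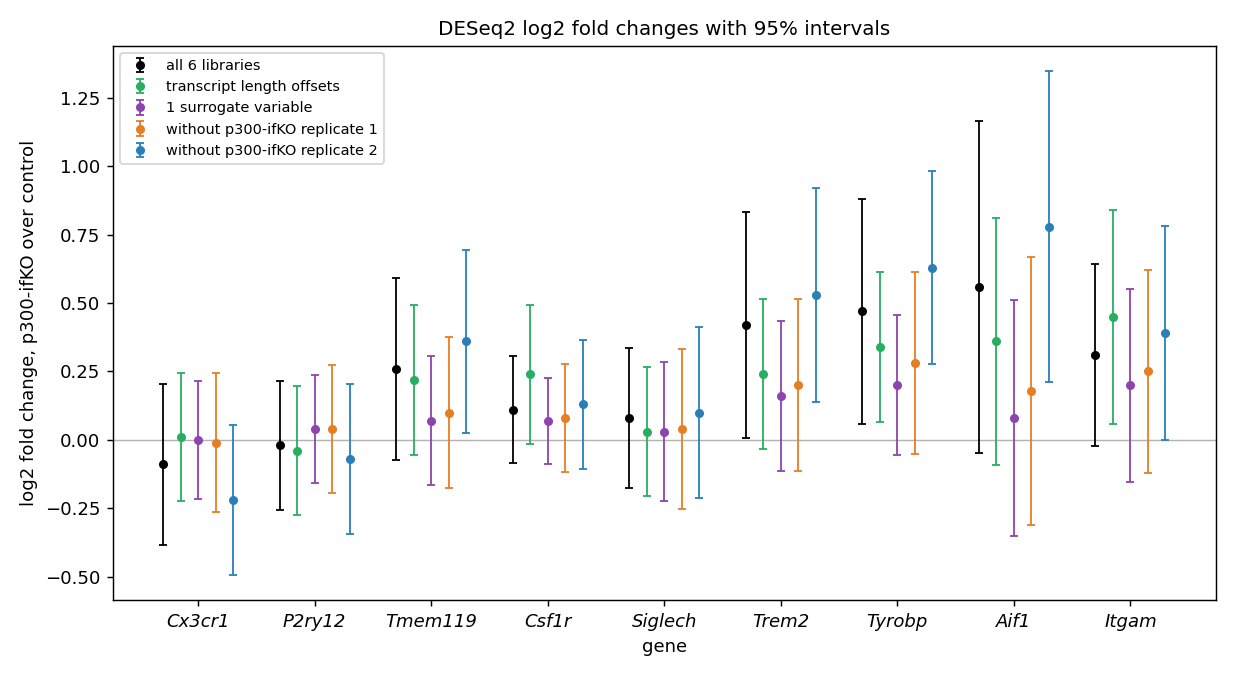
DESeq2 log2 fold changes (p300-ifKO over control, vertical axis) of the 9 genes with 95% intervals, from all 6 libraries, with offsets for transcript length, with 1 surrogate variable, and without p300-ifKO replicate 1 or 2. The values for *Aif1* run from 0.08 with 1 surrogate variable to 0.78 without replicate 2, while those for *P2ry12* stay between -0.07 and 0.04.

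To compare genes with each other, counts were expressed per kilobase of the deposited exonic length and per counted read of the library (FPKM, mean of 6 libraries). *Tyrobp* was the most abundant transcript at 30.2, followed by *Csf1r* at 18.5, *P2ry12* at 16.8, *Cx3cr1* at 11.1, *Tmem119* at 10.4, *Siglech* at 5.65, *Aif1* at 4.21, *Trem2* at 3.69 and *Itgam* at 1.87. The ranges over libraries overlapped between *Csf1r* and *P2ry12*, between *Cx3cr1* and *Tmem119*, between *Siglech* and *Aif1* and between *Aif1* and *Trem2*. The ranges alone do not separate the order within each of these pairs, and the order within each library was not compared. The place of *Trem2* depends on the length used: the deposited 4946 bases join the exons of all its transcripts, whereas its principal transcript has 1088 bases. Per kilobase of principal transcript *Trem2* came directly after *P2ry12*, at 16.8, and the first 3 places did not change. The last place of *Itgam* is uncertain too. It shares 66.34% of its exonic stretches of 50 bases with *Gm49368*, and how reads on them were counted is not known here. Control mice had a *Tyrobp* FPKM of 25.1 ± 2.11 (SD, n = 3), and p300-ifKO mice one of 35.3 ± 8.58 (SD, n = 3).

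Whether the 9 genes moved together was examined library by library, as the deviation of log2(normalized count + 1) from the mean of each gene over the 6 libraries. The median deviation of the 9 genes was -0.03, -0.10 and -0.20 in control replicates 1 to 3 and 0.29, -0.00 and 0.05 in p300-ifKO replicates 1 to 3. p300-ifKO replicate 1 was the highest and control replicate 3 the lowest, with 7 of 9 and 0 of 9 genes above their own mean. The genes did not move by a common amount in p300-ifKO replicate 1, where deviations ran from -0.21 for *Cx3cr1* to 0.88 for *Aif1* (SD over genes 0.355). In the other libraries that SD was between 0.0632 and 0.168. In p300-ifKO replicate 2 the order was turned, with *Cx3cr1* highest at 0.19 and *Aif1* lowest at -0.20.

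The same deviations were then set against genes of like exonic length (the longer at most 25% longer than the shorter) and like level (within 1.5-fold) that were on no microglia list. The median of these genes was 0.14 in p300-ifKO replicate 1 and -0.09 in control replicate 3, the same 2 libraries in which the microglia genes were farthest from 0. Relative to them, the median excess of the 9 genes was 0.07 in p300-ifKO replicate 1 and lay between -0.09 and 0.05 in the other libraries. For the difference between group means, *Tmem119* had 0.25 against 0.17 for its 447 like genes, *Siglech* 0.08 against 0.09, and *Tyrobp* 0.45 against 0.33, the last from only 20 like genes. *P2ry12* had -0.02 against 0.15 and *Cx3cr1* -0.10 against 0.02. The median over the 9 of the difference from like genes was 0.11.

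*Trem2*, *Itgam*, *Aif1* and *Csf1r* exceeded their like genes by 0.40, 0.34, 0.33 and 0.15. With the length of the principal transcript in place of the deposited length, an alternative chosen after seeing the data, the excess of *Trem2* was 0.14, since its like genes then had a median difference of 0.25. On that scale *Aif1* exceeded its like genes by 0.27 and *Tyrobp* by 0.12. *Itgam* and *Csf1r*, whose principal transcripts have 4649 and 4701 bases, exceeded theirs by 0.41 and 0.19. For *Itgam* the like genes lay below 0, at -0.10, while the gene itself had 0.31. Still by principal transcript length, in p300-ifKO replicate 1 *Itgam* was 0.50 above its like genes, the largest excess of the 9 in that library, and *P2ry12* was 0.27 below its own. These contrasts are descriptions with no test.

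Transcript length was therefore followed over all 39 genes that mark microglia, the 9 above and 30 further identity genes, in 3 classes of principal transcript length set after seeing the data. Of the 9 microglia genes under 1500 bases (*Aif1*, *C1qa*, *C1qb*, *C1qc*, *Ctss*, *Ltc4s*, *Ly86*, *Trem2* and *Tyrobp*), 9 had a log2 fold change above 0, with a median of 0.48. Among the 1513 other genes of that length with a mean of 100 or more normalized counts, 90.9% were above 0, with a median of 0.28. From 1500 to 3000 bases, 9 of 13 microglia genes were above 0 with a median of 0.09, beside 72.0% of other genes with a median of 0.10. Over 3000 bases, 9 of 17 were above 0 with a median of 0.04, beside 26.0% of other genes with a median of -0.10. The share of microglia genes with higher means in p300-ifKO mice thus fell with length as did that of other genes, and their median was above that of other genes in the shortest and the longest class. In p300-ifKO replicate 1 the median deviations of microglia genes in the 3 classes were 0.68, 0.22 and -0.04, and those of other genes 0.52, 0.18 and -0.22. In p300-ifKO replicate 2 the order was reversed for both, with -0.22, -0.06 and 0.06 for microglia genes and -0.21, -0.08 and 0.09 for other genes.

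**Figure D3:**
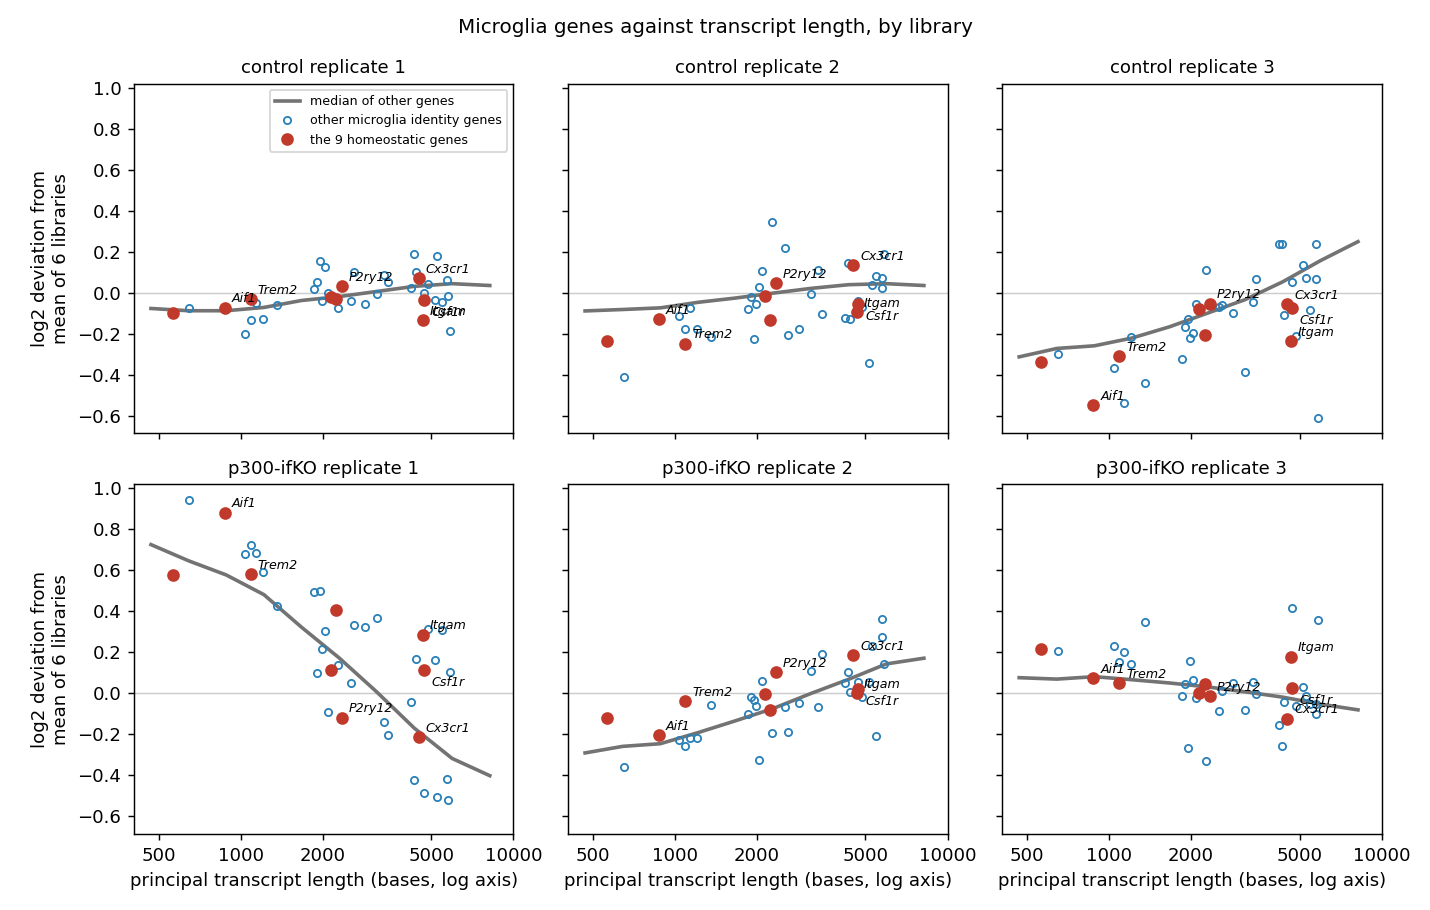
Deviation of log2(normalized count + 1) from the mean of 6 libraries (vertical axis) against principal transcript length in bases (log axis), by library, for the 9 homeostatic microglia genes (red), 30 other microglia identity genes (blue) and the median of other genes in length bins (grey line). In p300-ifKO replicate 1 the grey line falls from 0.73 in the shortest bin to -0.40 in the longest, and *Aif1* lies above it at 0.88 and *Cx3cr1* near it at -0.21.

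The 30 further identity genes gave a wider view of the same cells. In DESeq2 0 of 30 passed, with 4 at an unadjusted p under 0.05, 3 of them higher and 1 lower in p300-ifKO mice, beside 1.32% of all genes (432) in either direction. In edgeR 0 of 30 passed, with 3 at an unadjusted p under 0.05. Log2 fold changes were above 0 for 20 and below 0 for 10, with a median of 0.10, which was 0.06 without p300-ifKO replicate 1 and 0.19 without replicate 2. Besides *C1qa* and *C1qb*, the genes at an unadjusted p under 0.05 were *Ctss* and *Mertk*, named after their values were seen. *Ctss*, which encodes the protease cathepsin S, had 2046, 1838 and 1572 normalized counts in the controls, against 2872, 2057 and 2720, a difference of 0.49 on the log2 scale (SE 0.18, adjusted p = 0.991 in DESeq2). *Mertk*, which encodes a receptor for the uptake of dying cells, went the other way, with 1237, 1199 and 1278 against 810, 1166 and 907, or -0.36 (SE 0.17, adjusted p = 0.991 in DESeq2). All p300-ifKO libraries lay above all control libraries for 2 of the 30, *Ctss* and *Irf8*, and below them for 1, *Mertk*. Among genes with a mean of 100 or more normalized counts the share above was 3.57% (437 genes). The share below is not given here. *C1qa*, *C1qb* and *C1qc*, which encode the chains of complement C1q, had 0.50, 0.47 and 0.39, with p300-ifKO replicate 2 within the control range for each. The transcription factor genes *Spi1* (PU.1), *Irf8* and *Sall1*, which set microglial identity, had 0.04 (SE 0.26), 0.23 (SE 0.20) and -0.16 (SE 0.21). Summed over the list, normalized counts ran from 17622 to 19392 for controls and from 18812 to 23549 for p300-ifKO mice, and the highest value was again that of p300-ifKO replicate 1.

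Ligands of these receptors were read next. *Cx3cl1*, *Csf1* and *Il34*, which encode the ligands of CX3CR1 and of the CSF1 receptor, had log2 fold changes of 0.05 (SE 0.10), 0.05 (SE 0.15) and 0.12 (SE 0.14), each smaller than its error. *Apoe*, a lipid carrier bound by TREM2, had 0.29 (SE 0.21), and its normalized counts were 33605, 33923 and 30780 in control mice and 53217, 30116 and 37272 in p300-ifKO mice, with the lowest and highest values both from p300-ifKO mice. All 7 ligands had log2 fold changes above 0, with a median of 0.19, and 0 of 7 passed in DESeq2 or in edgeR. One, the complement gene *C3* (0.82, SE 0.37, between 23.1 and 71.4 normalized counts), had an unadjusted p under 0.05 in both tools, and was named after its values were seen.

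Among 14 signalling partners 0 passed in DESeq2 or edgeR, with 0 at an unadjusted p under 0.05 in either, 9 log2 fold changes above 0 and a median of 0.10. *Fcer1g*, which like *Tyrobp* encodes an adaptor of immune receptors on a short transcript, had 0.49 (SE 0.28). *Syk* and *Plcg2*, which act downstream of DAP12, had -0.21 (SE 0.26) and 0.25 (SE 0.21). Of 24 genes linked to microglia activation 0 passed in either tool, with 0 at an unadjusted p under 0.05 in DESeq2 and 1 in edgeR, *Tlr2*. Their median was 0.31, with 19 above 0. *Cst7* and *Lpl*, which mark the disease-associated state of microglia, had 0.28 (SE 0.81, a mean under 10 normalized counts) and 0.03 (SE 0.18). The phagocyte gene *Cd68* had 0.20 (SE 0.22). *Lpl* averaged 1489 normalized counts in control mice, more than *Cx3cr1* at 1293. Which cells of the whole tissue supply the counts of the activation genes cannot be told, so their values and median are no measure of microglial state. Without p300-ifKO replicate 1 the median of the activation genes was 0.08.

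**Figure D4:**
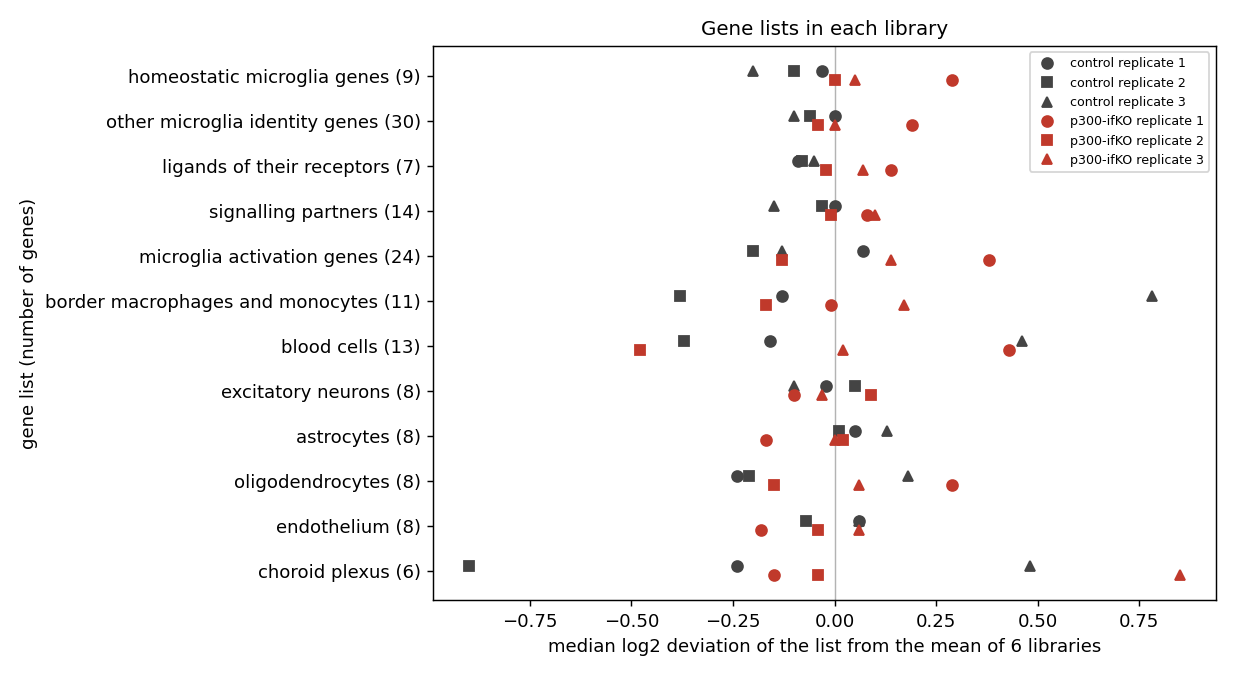
Median deviation of each gene list (vertical axis, number of genes in brackets) from the mean of 6 libraries on the log2 scale (horizontal axis), with 1 symbol per library. For the homeostatic microglia genes the 3 p300-ifKO libraries lie between -0.00 and 0.29 and the controls between -0.20 and -0.03, and for border macrophages control replicate 3 stands apart at 0.78.

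Markers of other cells in the tissue were read beside these genes. For 11 genes of border macrophages and monocytes, which also carry *Aif1*, *Itgam* and *Csf1r*, the summed level was 516 to 784 normalized counts in control and 441 to 546 in p300-ifKO mice, against 6770 to 7300 and 7457 to 8208 for the 9 microglia genes. Most of the border macrophage sum came from 1 gene, *Stab1*, with 387 to 507 normalized counts in control and 295 to 396 in p300-ifKO mice. The sums are not scaled for length, so they do not give the relative amounts of the 2 cell types. The highest border macrophage sum was that of control replicate 3, in which the microglia genes were lowest. *Mrc1*, which encodes the mannose receptor of these cells, had a log2 fold change of -0.52 (SE 0.38). In this list 4 of the 11 had a mean under 10 normalized counts and 0 of 11 were at 0 in every library. Blood cell genes summed to 2130 to 4090 normalized counts in control and 1468 to 3613 in p300-ifKO mice, and the 2 ranges overlapped. For excitatory neurons, astrocytes, oligodendrocytes and endothelium, list medians were 0.01, -0.11, 0.17 and -0.10, and for 6 choroid plexus genes 0.41. Leaving out 1 library, oligodendrocyte genes ran from 0.04 (without p300-ifKO replicate 1) to 0.30 (without control replicate 3) and choroid plexus genes from -0.01 (without p300-ifKO replicate 3) to 1.001 (without control replicate 3). In these lists 0 genes passed in DESeq2 or edgeR, with 1 at an unadjusted p under 0.05 in both, the astrocyte gene *Slc1a3* (-0.25). The part of these cells in the microglia values was not tested.

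Genes whose pattern over the 6 libraries was most like the median of the 9 were sought among 13492 genes with a mean of at least 50 normalized counts that were on no list. The root mean square difference on the log2 scale was 0.016 for *Zfp64*, 0.024 for *Smarcd3* and *Nelfb*, 0.025 for *Tada2a*, 0.026 for *Hdac3*, 0.027 for *Neu1* and 0.028 for *Idnk* and *Zfp523*. The 9 genes themselves were less like their own median: *Tmem119* and *Itgam* were closest at 0.061 and 0.069, and *Cx3cr1* and *Aif1* farthest at 0.258 and 0.294. The median was 0.143 over the 9 and 0.208 over the 13492 genes. The 9 genes themselves make up the reference median, which draws them towards it. The genes named as most like it are by choice the closest of 13492. Neither contrast is a test. Of the 13492 genes, 62.77% were closer to the median of the 9 than *Cx3cr1* was, 71.12% closer than *Aif1* and 2.16% closer than *Tmem119*.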

How the data were processed

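The deposited table held raw counts per gene for hippocampus of 3 control and 3 p300-ifKO mice. The authors trimmed single-end 50 bp reads (Trim Galore 0.6.4), aligned them to GRCm38 (STAR 2.6.1), kept reads with a mapping quality above 10 and counted them on exons with Rsubread. The strand setting is not given in the sources used here. The quality limit lowers counts of genes with near-identical copies. Groups and replicate numbers came from sample titles, and 0 per-sample columns were left unused. Of 55471 genes, 55230 (99.57%) matched GENCODE M21, which gave symbols, coordinates and transcript lengths. The main test was DESeq2 (1.42.0, R 4.3.3; the study used 1.30.1), a two-sided Wald test without covariates, with Benjamini-Hochberg adjustment over all genes and a threshold of 0.05. Intervals are 95% Wald intervals. Alternatives were edgeR 4.0.16, TMM factors, other filters, 1 surrogate variable (sva 3.50.0), length and GC offsets (mgcv 1.9.3), leaving out 1 library at a time, and a replicate block. The fits were tested on simulated data. Offsets by principal transcript length and length classes were chosen after seeing the data. The genes and lists were chosen with earlier results of these data known. All genes of the homeostatic set are named, with a set of partner genes and the 8 genes of most similar pattern, and any other gene was named after its values were seen.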

Additional observations from a re-analysis of the deposited data

How the results depend on the processing

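The number of genes called stayed between 2 and 4 over 9 alternatives, and between 2 and 926 when 1 library was left out, the highest without p300-ifKO replicate 2, a fit in which 1 of the 9 microglia genes was called against 0 in the other fits. The median of the 9 was 0.073 with 1 surrogate variable, 0.19 with length offsets, 0.13 with length and GC offsets and 0.24 with principal transcript length offsets. Leaving out 1 library it ran from 0.10 (without p300-ifKO replicate 1) to 0.36 (without p300-ifKO replicate 2). The direction of *Cx3cr1* turned with principal transcript length offsets (0.013), and that of *P2ry12* with 1 surrogate variable (0.036), length and GC offsets (0.028), without control replicate 2 (0.0056) and without p300-ifKO replicate 1 (0.036). Leaving out 1 library, *P2ry12* ran from -0.071 to 0.036. The cause was not tested. The direction of the other 7 genes held in all 15 alternatives. *Tyrobp* alone passed when p300-ifKO replicate 2 was left out (0.63, DESeq2 adjusted p = 0.0255).

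Same-numbered samples did not deviate together throughout: correlations over 17071 genes were 0.269, -0.279 and 0.134 for numbers 1 to 3. Library differences by transcript length enter these correlations, so they cannot decide whether the numbers pair the mice. With a replicate block 4 genes were called, 0 of them among the 9 microglia genes, whose median was 0.25.

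List medians moved as follows. Ligands had 0.037 with 1 surrogate variable, 0.109 with length and GC offsets and 0.085 to 0.341 leaving out 1 library. Signalling partners had 0.02 to 0.15 and activation genes 0.079 to 0.43 leaving out 1 library, and activation genes 0.038 with 1 surrogate variable. Border macrophage genes ran from -0.36 to 0.28, other identity genes from 0.06 to 0.19, oligodendrocyte genes from 0.042 to 0.303, choroid plexus genes from -0.011 to 1.001, astrocyte genes from -0.166 to -0.047, endothelial genes from -0.157 to -0.00 and excitatory neuron genes from -0.044 to 0.052. Blood cell genes, with a median of 0.51 over all 13 of which 7 had a mean under 10 normalized counts, had -0.17 in edgeR and -0.17 with the filter of 10 counts in 3 libraries, where fewer genes enter, and -0.055 to 0.797 leaving out 1 library. Astrocyte genes had -0.022 with principal transcript length offsets. Endothelial genes had 0.016 with 1 surrogate variable, 0.044 with length and GC offsets, 0.029 with length offsets and 0.016 with principal transcript length offsets. Genes around *Csf1r* had -0.008 in edgeR and -0.014 with the filter of 10 counts. The median difference of the 9 genes from like genes (0.11) was 0.10 to 0.14 over 4 alternatives.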
